A study of Rattus norvegicus with 6 samples.

Results

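Matricellular genes of the rat aorta were followed: the thrombospondin genes Thbs1, Thbs2, Thbs3 and Thbs4, the tenascin gene Tnc, the periostin gene Postn, the osteonectin gene Sparc, its relative Sparcl1 and the fibronectin gene Fn1. They were chosen by symbol, and 9 of 9 were found among the 24005 symbols of the deposited table. The aortas came from rats with chronic kidney disease, produced by a subtotal removal of the left kidney and, 1 week later, removal of the right one (5/6 nephrectomy), on a feed with 1.2% phosphorus that speeds up calcification. The exosome group (3 libraries) was given ANCR/E7-EXO, engineered exosomes, at 10 mg/kg into the tail vein every 5 days. The saline group (3 libraries) was given an equal volume of saline over 13 weeks. Nephrectomy and diet were common to both groups, and no healthy aorta and no unmodified exosomes are among the samples, so the cargo of the vesicles and the vesicles themselves cannot be told apart. Strain, sex and age are not in the labels, nor is it said that each library came from its own animal, so p-values here refer to library-to-library spread, which may be technical.

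Matricellular proteins are secreted into the extracellular matrix, where most of them regulate how cells attach, migrate and respond to growth factors rather than bear load. Thrombospondin-1 and thrombospondin-2 assemble as trimers and bind CD36 and CD47, and thrombospondin-1 can activate latent TGF-beta. Thrombospondin-3, thrombospondin-4 and the cartilage oligomeric matrix protein COMP form the subgroup that assembles as pentamers. Tenascin-C and periostin are best known from development, injury and remodelling of the vessel wall, SPARC binds collagen and mineral, and fibronectin forms fibrils through integrins.

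Values are FPKM, reads scaled to gene length and library total, so levels may be compared between genes. Library totals implied by the FPKM steps ran from 28063355 to 44561082 reads or read pairs. The smooth muscle markers were abundant in every library, with a summed level of 13780 to 21820 FPKM over 8 genes. The library exosome 3 stood apart for the heart muscle markers Tnnt2, Mb and Myh6, but not for every listed muscle marker. Tnnt2, which encodes cardiac troponin T, was at 8.58 FPKM there against 0.124 to 0.711 in the other 5 libraries. Mb, the myoglobin gene, was at 7.82 FPKM there against 0.0615 to 0.285, and Myh6, a cardiac myosin heavy chain, at 3.15 against 0.0119 to 0.275. Of the other listed muscle markers, Myl1 (7.53 FPKM) and Tnnt3 (24.25 FPKM) were also highest there. Acta1 (24.36 FPKM), Ckm (8.56 FPKM) and Myh1 (0.0372 FPKM) lay within the range of the other libraries. Of the 8 skeletal and cardiac muscle markers 6 were tested, none of the 8 was at 0 in every library, and they summed to 48.6 to 68.9 FPKM under saline and 49.4 to 84.3 FPKM under exosomes. Differences of the members that rest on exosome 3 are therefore given with and without it, while correlations are given over all 6 libraries only. The part of heart tissue in either was not tested.

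The stretches upstream of 4 of the genes are shown, members with a promoter window whose levels stood out in what follows. Thbs1, Thbs4 and Tnc were highest in exosome 3, and Thbs3 was the member whose groups were apart. Thbs2 was also highest in exosome 3 but had no promoter window. RefSeq promoter windows (build GRCr8; the build of the deposited table is not given in the sources used here) matched 7 of the 9 symbols. Each run is written 5′ to 3′ on the strand of the gene and stops before the first base of its RefSeq gene model. It covers chr3:125510000-125510249 (plus strand) for Thbs1, chr2:25760346-25760595 (minus) for Thbs4, chr5:82476198-82476381 (minus) for Tnc and chr2:176919349-176919548 (plus) for Thbs3. Capitals mark matches, on either strand, to 7 motifs: TATAAA (bound by TBP), CCAAT (bound by NF-Y), GGGCGG (GC box), GGAATG (core of the TEAD sites), TGANTCA (AP-1), GTCTAGAC (SMAD) and GAANNTTC (part of a heat shock element).
Thbs1: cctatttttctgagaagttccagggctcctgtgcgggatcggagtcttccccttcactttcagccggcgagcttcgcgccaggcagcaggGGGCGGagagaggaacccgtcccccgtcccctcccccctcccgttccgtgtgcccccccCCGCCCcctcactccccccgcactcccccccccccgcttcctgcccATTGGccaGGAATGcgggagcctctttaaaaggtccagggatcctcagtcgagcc
Thbs4: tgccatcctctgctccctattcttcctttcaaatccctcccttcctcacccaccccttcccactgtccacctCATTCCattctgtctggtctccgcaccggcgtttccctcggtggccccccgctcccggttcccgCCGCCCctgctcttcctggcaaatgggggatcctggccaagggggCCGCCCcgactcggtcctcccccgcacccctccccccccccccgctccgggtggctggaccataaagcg
Tnc: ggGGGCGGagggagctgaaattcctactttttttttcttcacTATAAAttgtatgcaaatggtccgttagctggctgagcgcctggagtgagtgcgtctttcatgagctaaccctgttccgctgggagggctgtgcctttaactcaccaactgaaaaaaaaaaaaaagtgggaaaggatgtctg
Thbs3: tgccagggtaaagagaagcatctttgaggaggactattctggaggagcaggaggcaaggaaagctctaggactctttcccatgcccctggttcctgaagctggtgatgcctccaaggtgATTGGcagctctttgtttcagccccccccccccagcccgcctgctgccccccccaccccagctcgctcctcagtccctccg

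In the 250 bases before the start in the table, Thbs1 held CCAAT on the other strand 55 bases and GGAATG 47 bases before the start, together with a GC box on each strand. Thbs4 held GGAATG on the other strand 178 bases before the start and 2 GC boxes. Thbs3 held CCAAT on the other strand 131 bases and a GC box on the other strand 53 bases before the start, the latter inside the gene model and so not in the run shown. Tnc held a GC box 248 bases before the start. Sparc held GGAATG 33 bases before the start, on the other strand. Of all 33469 windows 12.1% held GGAATG, 34.0% CCAAT, 30.5% a GC box and 12.9% TATAAA. The last of these motifs was found in Tnc, 208 bases, and in Postn, 44 bases before the start. For Postn the 250 bases lay inside the gene model, so that match is not upstream of the model. No match to TGANTCA (in 6.34% of windows), GTCTAGAC (0.173%) or GAANNTTC (7.23%) lay in the windows of the 7 genes, which says only that these letters are not there.

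The members spanned more than 3 orders of magnitude. Sparc was the most abundant, with a mean over the 6 libraries of 3152 FPKM, above 99.9% of the tested genes in rank. Sparcl1 followed at 1547 FPKM, then Fn1 at 394 and Postn at 175. The thrombospondins lay lower, at 33.96 FPKM for Thbs2, 13.03 for Thbs3, 2.66 for Thbs1 and 1.90 for Thbs4, and Tnc was lowest at 1.32. The order from Sparc to Thbs1 was the same in 6 of 6 libraries. Ranges over the libraries did not overlap between neighbours, except Fn1 and Postn. Thbs1 and Thbs4 kept their order in 3 of 6 libraries and Thbs4 and Tnc in 5 of 6. The order of the last 3 thus varied between libraries, and their differences in level were not tested. Reads behind these values ran from 60 for Thbs4 in saline 2 to 324202 for Sparc in saline 1.

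**Figure D1:**
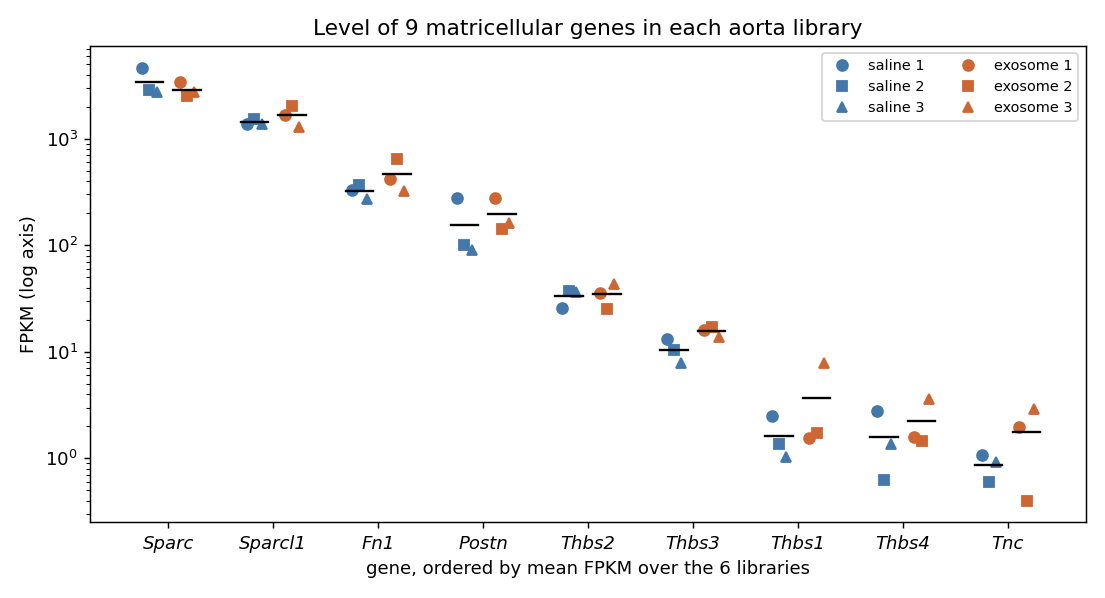
FPKM (log axis) of the 9 genes in each library, with saline in blue, exosomes in orange, a marker shape per replicate number and a black line at each group mean. The genes run from Sparc, at 2512 to 4660 FPKM, down to Tnc, at 0.401 to 2.92, and the groups are apart only for Thbs3.

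All 9 members passed the minimum mean of 1 FPKM, Tnc through its exosome libraries alone. None passed the test of exosomes against saline (limma on log2(FPKM + 1), Benjamini-Hochberg adjusted p over 11742 genes), with adjusted p-values from 0.276 for Thbs3 to 0.904 for Thbs2. Over all tested genes the same rule called 0.00852%, which is 1 gene, Zbtb16. At an unadjusted p under 0.05 there was 1 member, Thbs3, against 16.0% of all tested genes, and voom on recovered reads called 0 members as well. The groups did not overlap for 1 of 9 members, where 21.1% of all tested genes had groups apart in either direction and 9.4% with exosomes higher. With 1 of 9, the members are near these background shares. The log2 differences were above 0 for 8 members and below 0 for Sparc, with a median of 0.45, where the median of all tested genes was -0.073 and 39.3% lay above 0. Without exosome 3 the median of the members was 0.14, and that of all tested genes was not computed.

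**Figure D2:**
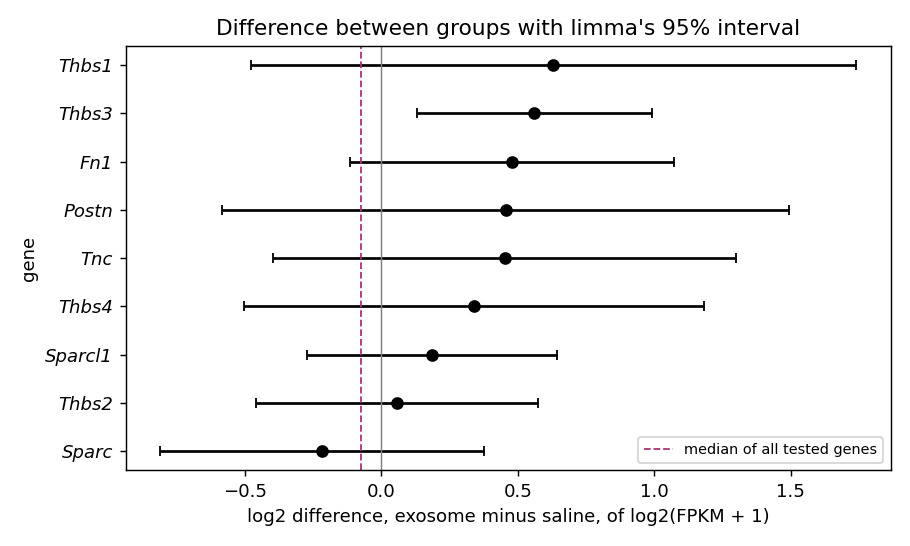
Difference of exosome minus saline for each gene on the log2(FPKM + 1) scale with limma's 95% interval (n = 3 per group), and the median of all tested genes as a dashed line at -0.073. The interval of Thbs3, 0.13 to 0.99, lies above 0 before adjustment, and the other 8 intervals include 0.

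Thbs3, a pentameric thrombospondin with roles in skeletal growth, was the member that separated the groups. It stood at 13.1, 10.4 and 7.81 FPKM in saline 1, 2 and 3 and at 15.97, 17.2 and 13.7 FPKM in exosome 1, 2 and 3. Every exosome library lay above every saline library, the closest being exosome 3 and saline 1. The means were 10.4 ± 2.64 and 15.6 ± 1.75 FPKM (SD, n = 3 each), a ratio of 1.5. The log2 difference was 0.56 ± 0.18 (SE), with an unadjusted p of 0.0174 and an adjusted p of 0.276 in limma. It kept its sign with each library left out, between 0.39 without saline 3 and 0.72 without saline 1, and was 0.65 without exosome 3.

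Thbs1, the thrombospondin that activates latent TGF-beta, was set apart by 1 library. It stood at 2.49, 1.37 and 1.02 FPKM in saline 1, 2 and 3 and at 1.57, 1.74 and 7.79 FPKM in exosome 1, 2 and 3. Exosome 3 was 3.13 times the next library, and exosome 1 and 2 lay within the saline range. The log2 difference of 0.63 ± 0.47 (SE; adjusted p = 0.508 in limma) was 0.054 without exosome 3 (adjusted p = 0.960).

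Thbs4, found mainly in tendon, heart and muscle, had a similar profile at a low level. It stood at 2.78, 0.628 and 1.35 FPKM in saline 1, 2 and 3 and at 1.58, 1.46 and 3.62 FPKM in exosome 1, 2 and 3. Exosome 3 and saline 1 were the highest, and the groups overlapped. The log2 difference of 0.34 ± 0.36 (SE; adjusted p = 0.636 in limma) was 0.048 without exosome 3, the same without saline 2, and 0.66 without saline 1. The tendon transcription factor gene Scx was also highest in exosome 3, at 24.4 FPKM, and next in saline 1, at 16.1, with 3.71 to 12.1 FPKM in the other 4. Of 8 tendon and cartilage markers 3 were tested, and the 8 summed to 275.5, 251.0 and 172.8 FPKM in saline 1, 2 and 3 and to 224.1, 277.5 and 173.6 FPKM in exosome 1, 2 and 3. Most of that sum was Fmod, a collagen-binding proteoglycan gene, so the sum did not follow Scx. Fmod was lowest in exosome 3, at 143.2 FPKM against 166.3 to 262.0 in the others. Chad (3.60 FPKM), Cilp2 (1.83 FPKM) and Acan (0.511 FPKM) were, like Scx, highest in exosome 3, the last 2 with means below 1 FPKM. Fmod, Mkx, Tnmd and Col2a1 were highest in other libraries. The part of these markers in the Thbs4 levels was not tested. Tnmd, which marks mature tendon, was at 0 in 4 libraries and at 0.0436 FPKM or less in the other 2.

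Thbs2, the closest relative of Thbs1 and a regulator of collagen fibrils, differed little. It stood at 25.7, 36.9 and 36.7 FPKM in saline 1, 2 and 3 and at 35.4, 25.4 and 43.7 FPKM in exosome 1, 2 and 3. Exosome 3 was again the highest library, and exosome 2 the lowest. The means were 33.1 ± 6.39 and 34.8 ± 9.20 FPKM (SD, n = 3 each), and the log2 difference was 0.058 with a 95% interval of -0.46 to 0.57. Its sign turned without exosome 3 (-0.12) and without saline 1 (-0.11).

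Together with Comp, the gene of the fifth thrombospondin (8.78 to 20.2 FPKM; named here for its family, outside the rule for named genes), the family summed to 58.1 to 68.2 FPKM in 5 libraries and to 86.4 FPKM in exosome 3. Thbs2 made up 42.5% to 63.5% of that sum and was the largest part in all 6 libraries. Thbs3 took 21.6%, 17.9% and 11.7% in saline 1, 2 and 3 and 23.4%, 29.4% and 15.9% in exosome 1, 2 and 3, so its share overlapped between the groups although its level did not. Thbs1 took 1.52% to 4.11% outside exosome 3 and 9.02% in it.

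Tnc, which encodes the injury-associated glycoprotein tenascin-C, was the least abundant member and varied widely inside the exosome group. It stood at 1.08, 0.603 and 0.917 FPKM in saline 1, 2 and 3 and at 1.97, 0.401 and 2.92 FPKM in exosome 1, 2 and 3. Exosome 1 and 3 lay above all saline libraries, and exosome 2 lay below them all. The log2 difference was 0.45 ± 0.36 (SE; adjusted p = 0.534 in limma). It was 0.88 without exosome 2 and 0.14 without exosome 3, and it turned to -0.41 with exosome 1 and 3 both left out, where exosome 2 is assumed to vary like the saline libraries.

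Postn, whose protein periostin crosslinks collagen through lysyl oxidase and binds integrins, had high and low libraries in both groups. It stood at 278.3, 99.8 and 89.9 FPKM in saline 1, 2 and 3 and at 278.5, 143.2 and 162.8 FPKM in exosome 1, 2 and 3. Saline 1 and exosome 1 were nearly equal and well above the rest, and outside saline 1 every exosome value lay above the saline values. The log2 difference was 0.46 ± 0.44 (SE; adjusted p = 0.606 in limma), and it was 0.97 without saline 1 (unadjusted p = 0.0114, adjusted p = 0.205). It was smaller without saline 3 (0.16), without exosome 1 (0.17) and without saline 2 (0.24). Saline 1 and exosome 1 also had the highest summed levels of the smooth muscle markers, at 21730 and 21820 FPKM against 13780 to 19630 in the others. Most of that sum was Acta2 and Tagln, which with Myh11 and Mylk were highest in these libraries. Smtn was highest in saline 3 (319.3 FPKM) and Cnn1 in exosome 3 (1730 FPKM). Des and Myocd were highest in exosome 1, but in saline 1 (307.4 and 15.2 FPKM) they lay below every exosome library. The part of smooth muscle in the Postn levels was not tested.

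Sparc was the member with a lower mean under exosomes, and that rested on saline 1. It stood at 4660, 2885 and 2723 FPKM in saline 1, 2 and 3 and at 3390, 2512 and 2741 FPKM in exosome 1, 2 and 3. Saline 1 was the highest library by 1.38 times, followed by exosome 1, and the other 4 lay between 2512 and 2885 FPKM. The log2 difference of -0.22 ± 0.25 (SE; adjusted p = 0.669 in limma) was 0.028 without saline 1.

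Sparcl1, also called hevin, an anti-adhesive relative of SPARC, stood at 1388, 1530 and 1383 FPKM in saline 1, 2 and 3 and at 1657, 2045 and 1278 FPKM in exosome 1, 2 and 3. Exosome 2 was the highest and exosome 3 the lowest library, with the saline libraries between them. The means were 1434 ± 83.4 and 1660 ± 383.5 FPKM (SD, n = 3 each), so the spread was mostly in the exosome group. The log2 difference was 0.19 ± 0.20 (SE; adjusted p = 0.632 in limma). It was 0.36 without exosome 3 and 0.023 without exosome 2.

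Fn1, the gene of fibronectin, had the second smallest p of the members. It stood at 330.1, 365.4 and 272.2 FPKM in saline 1, 2 and 3 and at 420.4, 652.4 and 325.2 FPKM in exosome 1, 2 and 3. Exosome 1 and 2 lay above all saline libraries, while exosome 3 lay inside their range. The means were 322.6 ± 47.1 and 466.0 ± 168.3 FPKM (SD, n = 3 each), a ratio of 1.45. The log2 difference was 0.48 ± 0.25 (SE), with an unadjusted p of 0.0980 and an adjusted p of 0.375 in limma. It was 0.71 without exosome 3 (unadjusted p = 0.0198, adjusted p = 0.580) and 0.21 without exosome 2.

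The summed level of the endothelial markers was, like Fn1 and Sparcl1, highest in exosome 2. The 8 markers summed to 103.6, 123.8 and 88.0 FPKM in saline 1, 2 and 3 and to 139.0, 214.1 and 141.6 FPKM in exosome 1, 2 and 3. Of the 8 genes 6 were highest in exosome 2. Cdh5 was highest in saline 2 (18.5 FPKM, against 17.9 in exosome 2) and Emcn in exosome 3 (5.14 FPKM, against 4.25). Pecam1, an adhesion molecule of endothelial junctions, was at 69.1 FPKM in exosome 2 against 25.3 to 44.1 in the others. Of the whole list 8 of 8 had log2 differences above 0, with a median of 0.55. Their part in the Fn1 and Sparcl1 levels was not tested, and in whole aorta more cells of a type and more RNA per cell cannot be told apart.

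**Figure D3:**
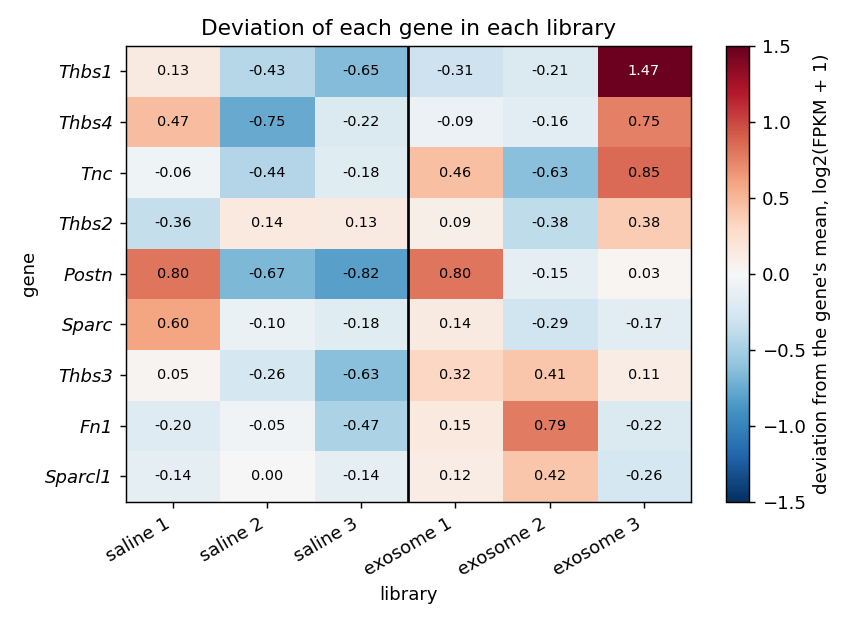
Deviation of each gene in each library from its mean over the 6 libraries, in log2(FPKM + 1), red above and blue below, with saline left and exosomes right of the black line. Exosome 3 holds the highest values of Thbs1 (1.47), Thbs4 (0.75), Tnc (0.85) and Thbs2 (0.38), and exosome 2 those of Fn1 (0.79), Sparcl1 (0.42) and Thbs3 (0.41).

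The members therefore did not share 1 profile. Exosome 3 was the highest library for 4 members, against 16.1% of all tested genes, and exosome 2 for 3 members, against 20.6%. Saline 3 was the lowest for 4 members, against 10.5% of all tested genes. Exosome 3 was the lowest for 1 member and for 34.3% of all tested genes, where each other library was lowest for 9.14% to 15.6%. Across the 6 libraries, which share depth and composition within each library, Pearson's r of log2(FPKM + 1) was 0.94 for Sparcl1 and Fn1, 0.83 for Thbs1 and Thbs4, 0.74 for Postn and Sparc and 0.72 for Thbs1 and Tnc. The lowest values among the 36 pairs were -0.59 for Tnc and Sparcl1 and -0.58 for Thbs2 and Sparcl1. These are descriptions of 6 libraries. They were not computed without exosome 3, in which Thbs1, Thbs4 and Tnc were highest.

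The 3 members with the widest range over the libraries were Thbs1, Postn and Thbs4, and the genes most like them were sought among all tested genes by the same r. For Thbs1 they were Clu (r = 0.998), which encodes the secreted chaperone clusterin, Ackr2 (0.987), an atypical chemokine receptor gene, and Lcp1 (0.986), an actin-bundling protein gene of leukocytes. Clu stood at 852.9 FPKM in exosome 3 and at 490.6 to 594.1 FPKM in the other libraries. For Postn they were Id2 (0.997), an inhibitor of basic helix-loop-helix factors, Dmpk (0.992), a protein kinase gene, and Cdh6 (0.991), a cadherin gene. Cdh6 stood at 12.0 FPKM in saline 1 and 12.9 in exosome 1, and at 5.32 to 9.37 FPKM in the other libraries. For Thbs4 they were Micall1 (0.988), Irf5 (0.983) and Six2 (0.968), of which Six2, a homeobox gene, reached 7.45 FPKM in exosome 3 and 3.61 in saline 1. Over 0.95 lay 21 genes for Thbs1, 25 for Postn and 20 for Thbs4. How many lie over 0.95 for other tested genes was not computed, so these counts do not mark sets of genes that vary together. For Thbs1 and Thbs4, likeness without exosome 3, their highest library, was not computed.

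The lists that follow may be read against all tested genes, of which 39.3% had a log2 difference above 0, 16.0% an unadjusted p under 0.05 and 21.1% groups apart. Of the receptors of these proteins (integrins, syndecans, CD36, CD47 and others) 17 of 18 listed genes were tested, and none passed in limma. At an unadjusted p under 0.05, 3 were higher and 1 lower, and the median log2 difference was -0.015. Itgb3, the beta-3 integrin subunit that binds the RGD motif of several members, stood at 24.1, 23.1 and 30.4 FPKM in saline 1, 2 and 3 and at 16.4, 21.6 and 17.0 FPKM in exosome 1, 2 and 3, a log2 difference of -0.48 ± 0.15 (SE; adjusted p = 0.270). Stab1, a scavenger receptor for SPARC on macrophages and sinusoidal endothelium, stood at 11.0 ± 0.462 and 15.4 ± 2.82 FPKM (SD, n = 3 each; adjusted p = 0.281). Sdc4, a heparan sulfate receptor that acts with integrins on fibronectin, stood at 26.1 ± 2.82 and 35.0 ± 6.01 FPKM (adjusted p = 0.287). The groups were apart for these 3, which were named for their small p. The exosome libraries also lay apart for the sum of the 7 macrophage markers, at 77.9 to 88.8 FPKM under saline and 109.1 to 133.0 FPKM under exosomes. Of these genes 5 had groups apart, while Cd68 and C1qa overlapped. The part of macrophages in the Stab1 level was not tested.

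Other matricellular genes had mostly log2 differences below 0. Of 24 listed, 23 were in the table under a current or older symbol and 19 were tested. Of these 15 lay below 0 and 4 above, with a median of -0.24, and none passed in limma, while at an unadjusted p under 0.05 there were 4 lower and 1 higher. Cyr61, the early response gene of the CCN family, had the largest difference, from 305.9, 845.0 and 930.1 FPKM in saline 1, 2 and 3 to 180.1, 152.4 and 168.0 FPKM in exosome 1, 2 and 3 (log2 difference -1.90 ± 0.39 SE; adjusted p = 0.237). Smoc1, a SPARC-related calcium-binding gene, stood at 335.6 ± 55.6 and 242.5 ± 18.5 FPKM (SD, n = 3 each; adjusted p = 0.268). Tgfbi, the closest relative of Postn, stood at 21.8 ± 3.31 and 30.7 ± 3.95 FPKM (adjusted p = 0.262). It was above every saline library in all 3 exosome libraries, while Smoc1 and Cyr61 were below them all.

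**Figure D4:**
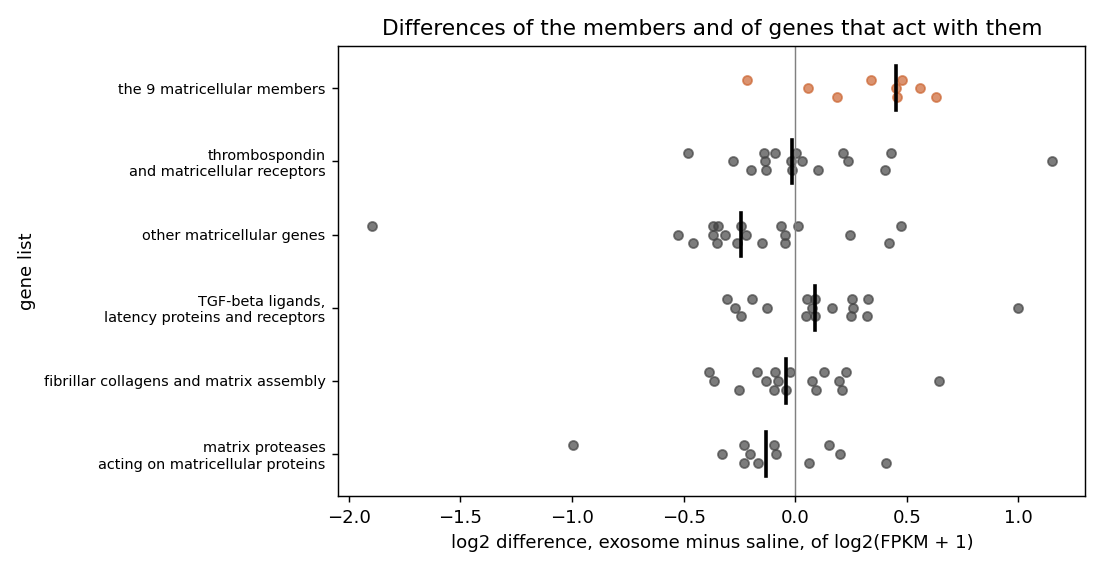
Log2 difference of exosome minus saline for the 9 members (orange) and for the tested genes of 5 related lists (grey), on the log2(FPKM + 1) scale, 1 point per gene and a black bar at each median. The members have a median of 0.45 and the other matricellular genes one of -0.24, and no point in the plot passed the adjusted threshold.

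The TGF-beta list held 17 tested genes, 12 of them above 0, with a median of 0.089. None passed in limma, and 1 was higher at an unadjusted p under 0.05. This was Smad7, the inhibitory SMAD that TGF-beta induces, at 11.9, 18.1 and 12.4 FPKM in saline 1, 2 and 3 and at 26.3, 25.3 and 35.9 FPKM in exosome 1, 2 and 3 (log2 difference 0.999 ± 0.20 SE; adjusted p = 0.237). Tgfb1, the ligand gene, stood at 29.2 ± 1.65 and 35.3 ± 4.21 FPKM (SD, n = 3 each; adjusted p = 0.326), with exosome values all above the saline ones. Ltbp3, a latency protein gene, stood at 225.1 ± 32.2 and 185.2 ± 5.10 FPKM (adjusted p = 0.345), with groups that overlapped.

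Collagens and their assembly genes gave 17 tested genes, 7 above and 10 below 0, with a median of -0.042 and none past the adjusted threshold. At an unadjusted p under 0.05, 1 was higher and 3 lower. Col12a1, a collagen that binds tenascins and decorates fibrils, stood at 1.63, 1.51 and 0.905 FPKM in saline 1, 2 and 3 and at 2.25, 2.07 and 3.82 FPKM in exosome 1, 2 and 3 (log2 difference 0.64 ± 0.23 SE; adjusted p = 0.285). Fbn1, the fibrillin of microfibrils, stood at 247.0 ± 14.2 and 189.4 ± 21.0 FPKM (SD, n = 3 each; adjusted p = 0.265). Tgm2, a transglutaminase that crosslinks fibronectin, stood at 399.4 ± 19.3 and 312.0 ± 46.8 FPKM (adjusted p = 0.291). The groups were apart for these 3, named for their small p, and Fbn1 and Tgm2 lay on the lower side.

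Among the matrix proteases and inhibitors 12 of 14 listed genes were tested, with 4 above and 8 below 0 and a median of -0.13. None passed in limma, and Adamts1 alone was lower at an unadjusted p under 0.05. Adamts1, a protease that cleaves thrombospondins and proteoglycans, stood at 141.9, 243.0 and 264.3 FPKM in saline 1, 2 and 3 and at 101.6, 175.7 and 63.8 FPKM in exosome 1, 2 and 3, with groups that overlapped (log2 difference -0.99 ± 0.38 SE; adjusted p = 0.291). Mmp2, a gelatinase gene, stood at 463.2 ± 64.1 and 392.2 ± 17.8 FPKM (SD, n = 3 each; adjusted p = 0.406). Plat, the tissue plasminogen activator gene, stood at 38.3 ± 13.0 and 49.9 ± 8.81 FPKM (adjusted p = 0.406).

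Immediate early genes, which are induced within minutes by serum and injury as Thbs1 can be, had mostly negative log2 differences. Of 15 tested genes 12 lay below 0, with a median of -0.88. None passed in limma, and 8 were lower and 1 higher at an unadjusted p under 0.05. The leading ones were Egr3 (log2 difference -1.62, adjusted p = 0.255), Btg2 (-1.32, adjusted p = 0.255) and Myc (0.87, adjusted p = 0.255). Thbs1 itself was not lower: its exosome 1 and 2 were within its saline range and exosome 3 above it.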

How the data were processed

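Aortic RNA of 6 rat libraries was sequenced after preparation with the SMARTER mRNA-seq kit per the labels. The authors deposited FPKM in 1 table of 24005 symbols and 6 columns, each named by the title of 1 sample. DESeq2 1.28.1 appears, without a role, per the submitters' processing notes. Aligner, counting, strand setting, annotation and build were not given in the sources used here. Hence reads of overlapping or antisense genes cannot be told apart. FPKM steps gave whole reads, within 0.02 reads, for 100.0% of the 18430 symbols above 0. They are the smallest whole numbers the steps allow, hence a lower bound for a single gene. No library pair was a duplicate (chi-square of reads 46.8 to 181.9 per gene).

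Groups were compared with limma 3.58.1 (R 4.3.3) on log2(FPKM + 1) as a two-sided test with moderation by an intensity trend. It covered 11742 genes (mean FPKM of 1 or more), with Benjamini-Hochberg adjustment over them and a threshold of 0.05. This scale understates the change of low genes. SDs are of FPKM within a group, standard errors and intervals are limma's. The fit was run on simulated data with independent noise in each gene and planted changes. Those data held no shift of whole libraries, so that run does not bear on such shifts here. Genes named are the members, up to 3 genes of smallest p in each list described, and the 3 genes most like each of 3 members. The heart, tendon and endothelial markers given with values, and Comp, were picked after their values were seen. Members, lists and motifs were chosen with earlier results of these data known. Older symbols were matched through the synonyms of the GRCr8 table. Replicate numbers occur in both groups, but deviations of same-numbered libraries correlated at 0.068, 0.096 and -0.17 over genes, so they were not taken as pairs. Alternatives covered pseudocount, filter, scaling, moderation, library weights, a replicate block, libraries left out and limma-voom on recovered reads. Python 3.11.15 and matplotlib 3.10.9 served for recovery and plots.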

Additional observations from a re-analysis of the deposited data

How the results depend on the processing

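No member passed in 18 of the 19 alternatives. The exception was limma with library weights, where the estimate of the weights stopped before convergence and gave exosome 1 a weight of 9.20 and the other libraries 0.305 to 1.14. It called 3268 genes and 3 members: Thbs3 (log2 difference 0.67, adjusted p = 0.0165), Postn (1.19, adjusted p = 0.0312) and Tnc (0.70, adjusted p = 0.0416). Weights estimated gene by gene, an alternative chosen after seeing the data, called 618 genes and 0 members. Quantile normalization called 2 genes, and leaving out exosome 1 and 3 together called 0. Leaving out 1 library at a time called 9 genes without saline 1, 4 without exosome 2, 2 without exosome 3, 1 without saline 2 and 0 without saline 3 or exosome 1. It called 0 members, and the members' median log2 difference lay between 0.14 and 0.53. With a minimum of 5 FPKM, Thbs1, Thbs4 and Tnc were not tested. The sign of Thbs2 turned without saline 1 (-0.11), without exosome 3 (-0.12) and without exosome 1 and 3 (-0.35). That of Tnc turned without exosome 1 and 3 (-0.41). That of Sparc turned without saline 1 (0.028) and with library weights of either kind (0.11 and 0.029). With 1 library left out at a time, Thbs2 ranged from -0.12 to 0.26 and Sparc from -0.36 to 0.028. The cause was not tested. No sign of a member turned under equal sums, the median of ratios or quantile normalization. With a replicate block 1 gene and 0 members were called, and the block changed no call at the adjusted threshold. Unadjusted p-values in limma fell with it for Postn, from 0.3375 to 0.0408, and for Fn1, from 0.0980 to 0.0214 (adjusted p = 0.327 and 0.303). Not every library correlated best with the one of its own number. Low reads limit Thbs4, Tnc and Thbs1, which had 60, 78 and 125 reads in their lowest libraries.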
